A study of Mus musculus with 6 samples.

Results

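The cell cycle and DNA replication genes described here are 40 named genes, of which 36 act as dividing cells copy and separate their chromosomes, 2 are G1 cyclins and 2 are inhibitors of cyclin-dependent kinases. They were chosen by name, and each gene was read from the brightest array probe set annotated with that gene symbol alone. Of the 40, 38 were measured, among 22180 genes in all: 13 of 14 genes of DNA replication, 21 of 22 of mitosis and all 4 of the G1 group. Ccnb1 had no such probe set, and that of Ccne2 was shared with Ints8.

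The tissue was adipose of mouse offspring aged 32 weeks. Of 6 arrays, 3 held RNA of offspring whose mothers ate a chromium restriction diet and 3 are labelled control diet, taken here as the mothers' diet too. The labels give neither strain, sex, fat depot nor litter, and do not say that the samples were separate animals, so each p-value rests on the scatter among the samples alone, which may be technical. The design asks how the mother's diet bears on gene expression in offspring fat.

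Dividing cells pass through G1, in which D-type cyclins and their kinases release the E2F transcription factors. E2F factors then switch on genes for DNA copying in S phase, and a later wave of genes builds the spindle and separates the chromosomes in mitosis. Mature adipocytes do not usually divide. In adult fat these transcripts are known mainly from progenitors, endothelial cells and immune cells, macrophages above all.

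All values are the deposited ones, taken as log2, and a difference is chromium restriction minus control on that scale. The adipocyte genes Fabp4, Car3 and Cidec lay between 12.77 and 13.81 on every array. All 8 measured adipocyte markers had a lower mean in the chromium restriction group, with a median difference of -0.14. Among them Adipoq, the gene of the fat hormone adiponectin, fell by 1.22 (adjusted p = 0.00495 in limma), and its probe set carries extra digits in the deposited table. Of the 7 liver markers, all were highest in chromium restriction replicate 1. The mean of these markers was 11.33, 6.55 and 10.90 in chromium restriction replicates 1, 2 and 3, against 6.56, 6.70 and 6.94 in the controls. Chromium restriction replicates 1 and 3 thus stood apart in liver transcripts, and the brown fat gene Ucp1 set controls 1 and 3 apart (10.25 and 7.37, against 4.87 to 4.94 elsewhere). In limma, a linear model fitted to every gene, 43 genes (0.194% of those tested) had an adjusted p under 0.05. That count was 0 with the 64 probe sets left out whose deposited values carried extra digits. None of the members lay among those 64.

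None of the 38 members was among those 43, and their smallest adjusted p was 0.547. By direction, 31 members had a higher mean in the chromium restriction group and 7 a lower one, while 43.2% of all genes were higher. The median difference was 0.087 over the members and -0.018 over all genes. At an unadjusted p of 0.05 in either direction 3 members differed (7.89%), against 5.95% of all genes. All 3 were higher (against 2.42% of all genes) and 0 were lower (against 3.53%). They were Cdkn1a, Cdk1 and Ccnd1. In these and in Mcm3 all 3 chromium restriction arrays lay above all 3 controls, which makes 4 members (10.5%, against 3.53% of all genes), and in 0 members did they lie below (against 6.06%). The count at p 0.05 was 8 without chromium restriction replicate 3, in a fit for which the share of all genes at that p was not counted.

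**Figure D1:**
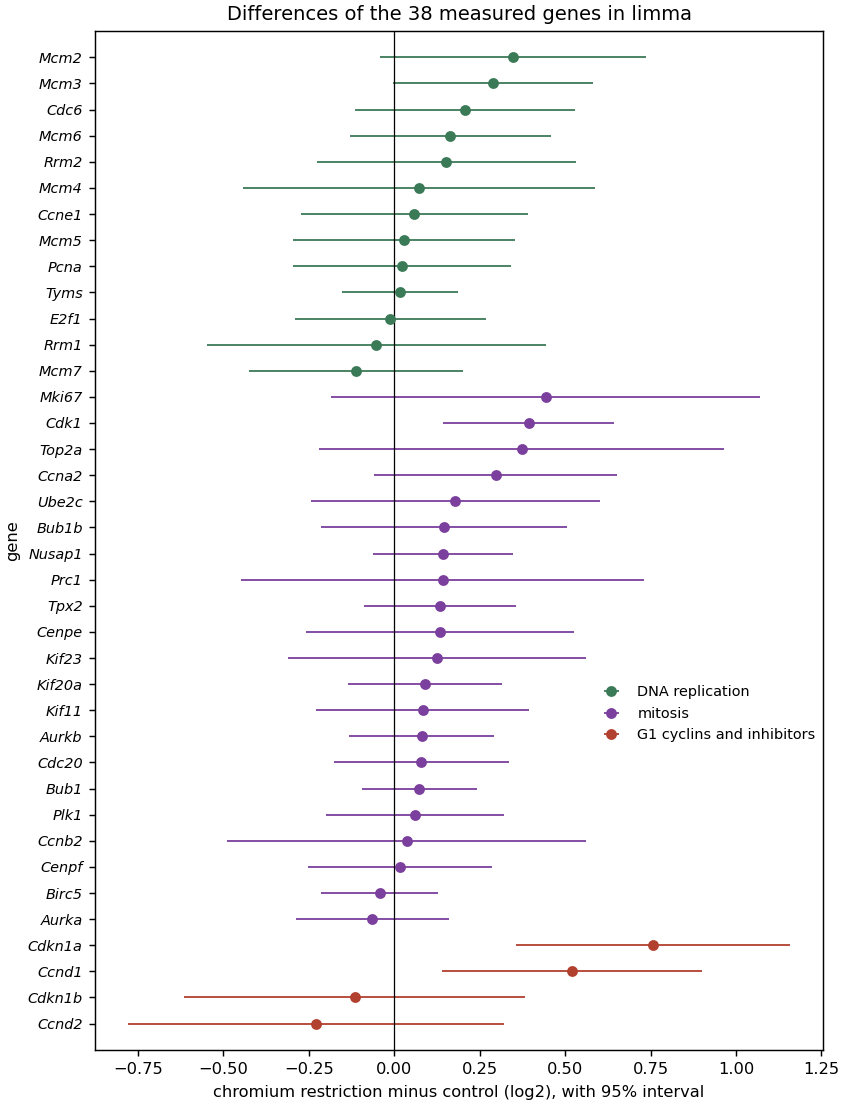
Log2 difference between chromium restriction and control (x axis) for each of the 38 measured genes (y axis), in 3 colours for DNA replication, mitosis and the G1 group. Points are limma estimates and lines their 95% intervals (3 arrays a group); the intervals of Cdk1, Ccnd1 and Cdkn1a lie wholly above 0, and those of the other genes include 0.

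Members spanned the array's range of brightness. Probe sets differ in their response, so brightness does not rank transcripts between genes. As a mark of the low end of each array, 1394 genes of olfactory and vomeronasal receptors, which act in sensory neurons, had medians of 4.47 to 4.52 and a 95th percentile of 5.26 to 5.44. Of the 38 members, 28 lay above that percentile on all 6 arrays. Bub1 and Birc5 did so on 0 arrays, so for these a difference may not be measurable. Cdc6 and Kif20a did so on 2 arrays, Top2a, Cenpe and Kif11 on 3, Ccna2 and Kif23 on 4, and Rrm2 on 5.

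Promoters of the mitotic genes shared short elements that those of most genes lack. RefSeq's promoter table (GRCm38.p6, 250 bases before to 50 after each start site) held 32 of the 40 members, and not Aurkb, Ccna2, Ccnd1, Ccnd2, Ccne2, Kif20a, Mcm4 or Tpx2. The letters searched on both strands were CCAAT, the core of the site of NF-Y; TTTGAA or TTCGAA, the cell cycle homology region (CHR) known from genes of late cell cycle phases; and TTTCCCGC, TTTGGCGC, TTTCGCGC or TTTGCCGC, forms of the E2F site. CHR letters stood in 14 of 18 mitotic genes (77.8%) and in 2 of 12 replication genes (16.7%), against 21.7% of the 27025 genes in the table, each gene counted once over its promoters. CCAAT stood in 16 of 18 mitotic and 8 of 12 replication genes, against 41.1% of all genes. E2F letters stood in 5 of 12 replication genes (41.7%) and in 1 of 18 mitotic genes, against 2.6% of all genes. These are matches of letters and not sites shown to be bound.

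The promoters of 4 members whose values are described here are shown to set the mitotic pattern beside that of a replication gene, 5′ to 3′ in the direction of the gene, with all of these matches in capitals. Adjacent matches can run together. They lie on GRCm38.p6 at chr10:69352863-69353162, minus strand (Cdk1), chr7:135716330-135716629, minus strand (Mki67), chr11:99024140-99024439, minus strand (Top2a) and chr1:20820263-20820562, minus strand (Mcm3).
Cdk1: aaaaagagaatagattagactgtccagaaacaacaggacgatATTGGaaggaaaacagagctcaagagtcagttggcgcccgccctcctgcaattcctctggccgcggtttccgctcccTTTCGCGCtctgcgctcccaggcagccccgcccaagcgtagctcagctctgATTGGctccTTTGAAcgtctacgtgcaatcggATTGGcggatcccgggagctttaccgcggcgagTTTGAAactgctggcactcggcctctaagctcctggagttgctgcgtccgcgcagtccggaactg
Mki67: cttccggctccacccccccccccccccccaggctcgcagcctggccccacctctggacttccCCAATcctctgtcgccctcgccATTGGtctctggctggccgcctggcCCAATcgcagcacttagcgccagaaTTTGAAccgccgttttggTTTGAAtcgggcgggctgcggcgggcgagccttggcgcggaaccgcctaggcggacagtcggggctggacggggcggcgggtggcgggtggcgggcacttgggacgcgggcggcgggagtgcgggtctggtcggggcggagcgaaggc
Top2a: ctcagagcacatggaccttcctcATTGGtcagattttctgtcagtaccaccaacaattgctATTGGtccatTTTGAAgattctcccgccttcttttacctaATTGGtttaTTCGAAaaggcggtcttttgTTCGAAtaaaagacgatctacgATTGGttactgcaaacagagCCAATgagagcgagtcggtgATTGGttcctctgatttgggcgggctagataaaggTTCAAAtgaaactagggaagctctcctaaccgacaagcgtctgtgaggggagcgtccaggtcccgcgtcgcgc
Mcm3: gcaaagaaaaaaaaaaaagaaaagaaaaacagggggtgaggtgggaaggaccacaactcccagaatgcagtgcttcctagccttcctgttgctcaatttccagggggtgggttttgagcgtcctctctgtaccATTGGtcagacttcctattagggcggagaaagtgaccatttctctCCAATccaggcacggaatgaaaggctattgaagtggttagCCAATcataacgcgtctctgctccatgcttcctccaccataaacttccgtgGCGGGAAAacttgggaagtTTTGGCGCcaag
Cdk1 held 3 CCAAT and 2 CHR matches and 1 E2F match, and Mki67 3 CCAAT and 2 CHR matches. Top2a held 6 CCAAT and 4 CHR matches. Mcm3 held 3 CCAAT and 2 E2F matches and no CHR letters in this window.

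The replication genes had no member past an unadjusted p of 0.05. In the chromium restriction group 10 of 13 were higher and 3 were lower, with a median difference of 0.059. Pcna encodes the sliding clamp that holds DNA polymerase on its template. It had values of 8.27, 8.72 and 8.39 in the chromium restriction group, against 8.32, 8.47 and 8.51 in controls. The groups overlapped, and the difference was 0.02 with a 95% interval of -0.30 to 0.34 (adjusted p = 0.997 in limma). An interval that wide does not show that the groups were equal.

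The related proteins Mcm2 to Mcm7 form the ring of the replicative helicase that opens the double helix. Mcm3 was at 5.98, 6.33 and 5.97 in the chromium restriction group, against 5.80, 5.70 and 5.89 in controls. Its groups did not overlap, replicate 2 was the highest, and the difference was 0.29 ± 0.12 (SE, n = 3 per group, adjusted p = 0.817 in limma). Mcm2 was at 6.42, 6.40 and 6.07, against 5.66, 6.03 and 6.15 in controls, and control 3 lay above chromium restriction replicate 3. Mcm4 was at 6.40, 7.17 and 6.64, against 6.60, 6.51 and 6.89, so replicate 2 alone exceeded every control. Mcm6 (0.16), Mcm5 (0.03) and Mcm7 (-0.11) differed by less than 2 standard errors. Among the 6 genes, Mcm3, Mcm4, Mcm5 and Mcm6 were highest in chromium restriction replicate 2, Mcm2 in replicate 1 and Mcm7 in control 1.

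Ribonucleotide reductase, which makes the deoxynucleotides for replication, has Rrm1 as its large and Rrm2 as its S-phase small subunit. Rrm1 was at 6.84, 7.46 and 6.74 in the chromium restriction group, against 7.13, 6.87 and 7.19 in controls. Replicate 2 was the highest array, replicates 1 and 3 were the lowest, and the difference was -0.05 ± 0.21 (SE, n = 3). Rrm2 was also highest in replicate 2, at 5.90, against 5.38 to 5.69 in controls. A dimmer Rrm2 probe set stood at 4.46 to 4.51 on all arrays, at the median of the receptor genes. Tyms, the thymidylate synthase gene, varied least of the class, within 6.42 to 6.55. The S-phase transcription factor gene E2f1 (-0.01), the helicase loader gene Cdc6 (0.21) and the cyclin gene Ccne1 (0.06) each overlapped between groups.

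Of the 21 mitotic genes 19 were higher in the chromium restriction group, with a median difference of 0.13, and 2, Aurka and Birc5, were lower. Cdk1 encodes the kinase that drives entry into mitosis. It was at 6.50, 6.33 and 6.34 in the chromium restriction group, against 5.91, 5.91 and 6.17 in controls. The groups did not overlap, and the means were 6.39 ± 0.09 in the chromium restriction group and 5.997 ± 0.15 in controls (SD, n = 3 each). The difference of 0.39 ± 0.10 (SE) is 1.31-fold, with an adjusted p of 0.678 in limma. With liver markers as a covariate it was 0.32 and missed an unadjusted p of 0.05. With replicate 2 alone against the controls it was 0.33. Liver markers set replicates 1 and 3 apart, so the covariate fit rests mainly on replicate 2. These values are therefore not separate checks. Among the mitotic genes Cdk1 was the one in which chromium restriction replicate 3 also lay above every control with an unadjusted p under 0.05.

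Mki67, whose protein Ki-67 coats mitotic chromosomes and marks cycling cells, showed a split within the chromium restriction group. It was at 7.32, 7.32 and 6.46 there, against 6.32, 6.71 and 6.75 in controls. Replicates 1 and 2 were above every control and replicate 3 was below controls 2 and 3. The difference was 0.44 ± 0.26 (SE, n = 3, adjusted p = 0.888 in limma).

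Top2a, the topoisomerase that untangles replicated DNA, had the same order. It was at 5.70, 5.80 and 5.12 in the chromium restriction group, against 4.79, 5.20 and 5.51 in controls, a difference of 0.37 ± 0.24 (SE). Ccna2, the cyclin of S phase and G2, was at 5.73, 5.85 and 5.31, against 5.27, 5.31 and 5.41. Ube2c, the ubiquitin-conjugating enzyme that works with the anaphase-promoting complex, was at 6.25, 6.33 and 5.76, against 5.74, 5.998 and 6.07. In all of Mki67, Top2a, Ccna2 and Ube2c, replicates 1 and 2 lay above all controls and replicate 3 did not. These 4 were set side by side after their values were seen, so the shared order is a description.

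Ccnb2, a B-type cyclin that partners Cdk1, was at 6.43, 6.07 and 5.84 in the chromium restriction group, against 5.71, 6.15 and 6.37 in controls, and its groups overlapped widely. Kif23, a kinesin of the central spindle, was at 5.96, 5.55 and 5.24 in the chromium restriction group, against 5.39, 5.49 and 5.498 in controls. Prc1, which bundles the microtubules of the central spindle, was at 6.07, 5.84 and 5.30, against 5.48, 5.96 and 5.35 in controls. The spindle checkpoint gene Bub1b was at 5.996, 5.65 and 5.41, against 5.55, 5.51 and 5.57. The spindle genes Nusap1 (0.14) and Tpx2 (0.13), the kinetochore genes Cenpe (0.13), Bub1 (0.07) and Cenpf (0.02), and the kinesin genes Kif20a (0.09) and Kif11 (0.08) differed by less than 2 standard errors. So did the mitotic kinase genes Aurkb (0.08), Plk1 (0.06) and Aurka (-0.06), the anaphase activator gene Cdc20 (0.08) and the survivin gene Birc5 (-0.04).

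**Figure D2:**
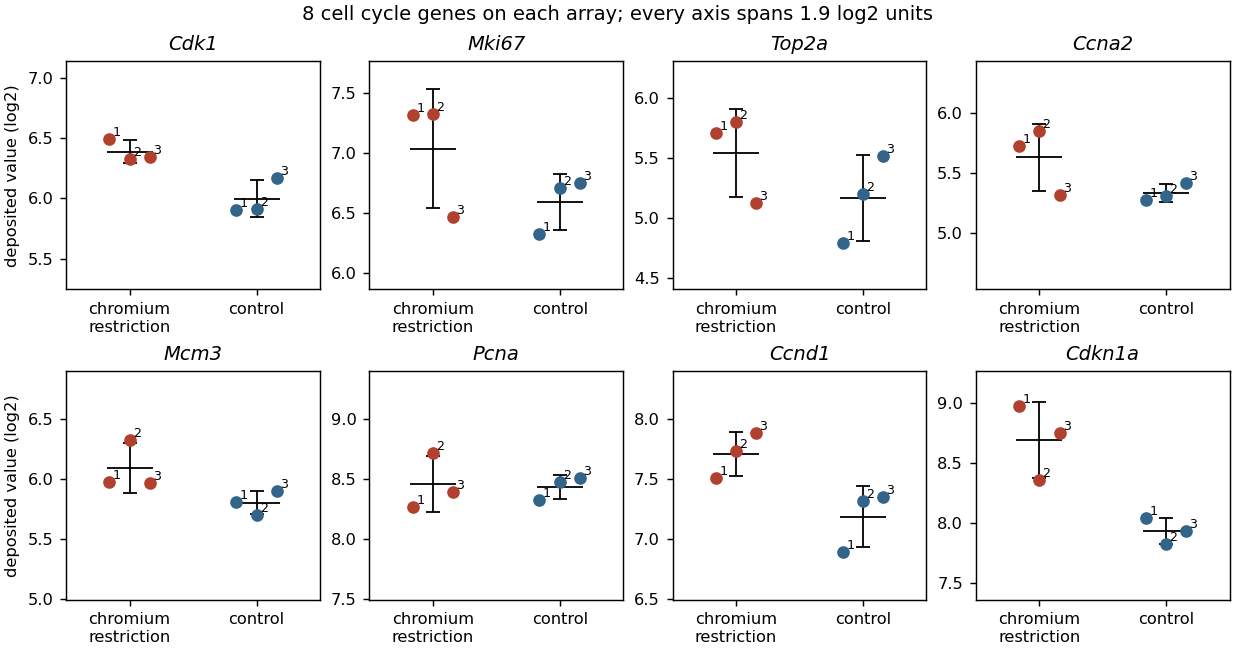
Deposited log2 value (y axis) of 8 genes on each array, with chromium restriction at left (red) and control at right (blue) and the replicate number beside each point. Bars show the mean and SD of 3 arrays; Cdk1, Mcm3, Ccnd1 and Cdkn1a do not overlap between groups, while Mki67, Top2a and Ccna2 are high in chromium restriction replicates 1 and 2 and not in replicate 3.

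Read by array, the replication and mitotic genes differed in where they were high. Relative to the mean of the controls, the median deviation of the replication genes was 0.05, 0.28 and -0.02 for chromium restriction arrays 1, 2 and 3, against -0.06, 0.04 and 0.08 for control arrays 1, 2 and 3. That of the mitotic genes was 0.16, 0.18 and -0.11, against -0.12, 0.05 and 0.04. Replication genes were thus high mainly in replicate 2, mitotic genes in replicates 1 and 2, and neither class in replicate 3. Of 13 replication genes 7 had their highest value in replicate 2, 3 in replicate 1 and 1 in replicate 3. Of 21 mitotic genes 10 had it in replicate 2, 7 in replicate 1 and 1 in replicate 3. Over all genes these shares were 12.9% for replicate 2, 21.4% for replicate 1 and 11.8% for replicate 3. Each array is a single sample, so these are descriptions without a test.

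Counted against the controls, 15 of 21 mitotic genes in replicate 1 and 15 of 21 in replicate 2 exceeded every control, against 26.8% and 18.8% of all genes. In replicate 3 it was 2 of 21, Cdk1 and Nusap1, against 20.3% of all genes, and 6 of 21 lay below every control, near the 29.1% of all genes that did. For replication genes the counts were 4, 8 and 2 of 13 in replicates 1, 2 and 3. In replicate 1, 4 of 13 replication genes, Mcm4, Mcm7, Pcna and Rrm1, lay below every control, near the 32.3% of all genes that did, and 0 of 21 mitotic genes did. Control 1, the array with the highest Ucp1, had the lowest mean of both classes. When it was left out, 16 of 21 mitotic genes and 7 of 13 replication genes were higher in the chromium restriction group.

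**Figure D3:**
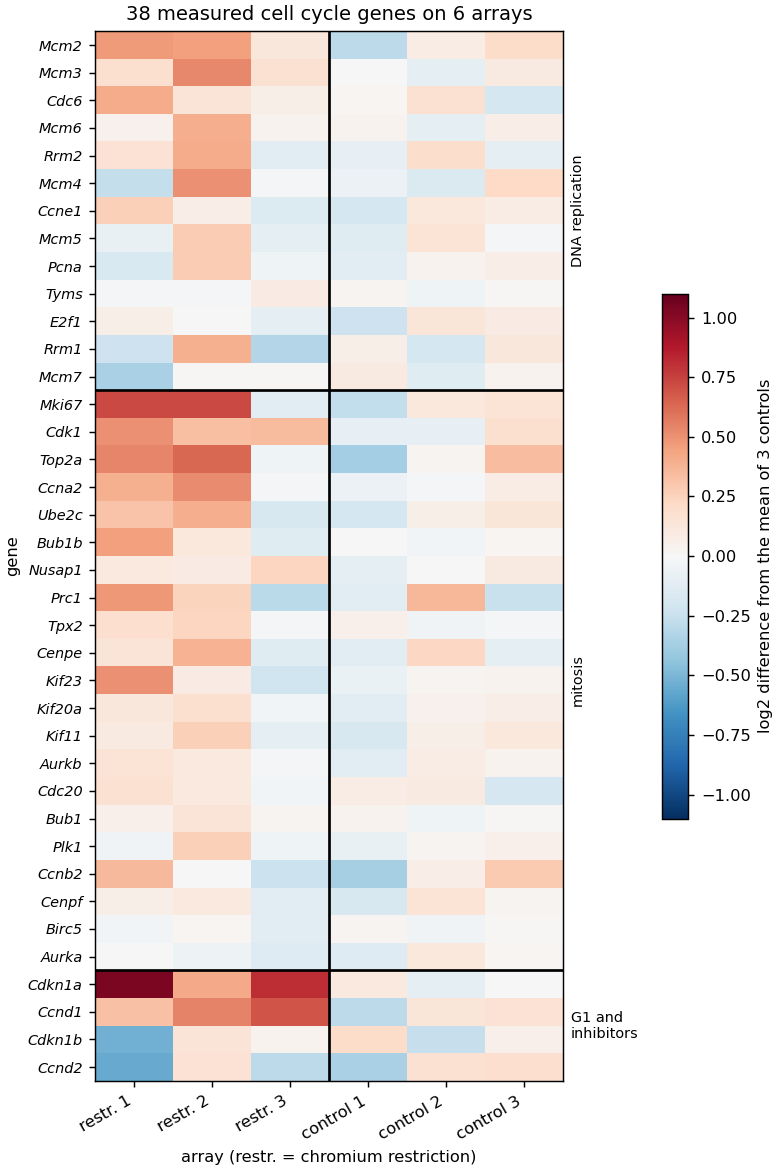
Log2 difference of each of the 38 measured genes (rows, grouped by class) from its mean over the 3 controls, on each of 6 arrays (columns), with chromium restriction at left. Red is higher and blue lower. Mki67, Top2a, Ccna2 and Ube2c are red in chromium restriction replicates 1 and 2, and Cdkn1a and Ccnd1 in all 3. Mcm3, Mcm4, Mcm5 and Mcm6 are red mainly in replicate 2, and Mcm2 in replicates 1 and 2.

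Markers of other cells also differed between the arrays, and not all in the same way. In a tissue sample, more cells of a type cannot be told apart from more RNA per cell. T and NK cell markers averaged 5.62, 6.66 and 5.56 in chromium restriction replicates 1, 2 and 3, against 5.58 to 5.81 in controls, and 10 of 11 were highest in replicate 2. B and plasma cell markers averaged 5.60, 6.58 and 5.44, against 5.59 to 5.73, and 11 of 13 were highest in replicate 2. Among them Cd3g was at 8.18 and the joining-chain gene Jchain at 9.34 in replicate 2, against at most 6.59 and 6.13 elsewhere. Epithelial markers of the intestine averaged 6.17 in replicate 2, 5.43 and 5.38 in replicates 1 and 3, and 5.14 to 5.28 in controls. Markers of the intestinal crypt, the dividing compartment of the gut lining, averaged 5.94 in replicate 2, 6.09 and 6.01 in replicates 1 and 3, and 5.75 to 6.04 in controls. Of these 5 markers, Olfm4 lay above the receptor percentile on 0 arrays and Lgr5 and Ascl2 on 1 each. A change in crypt markers may therefore not be measurable here.

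Macrophage markers averaged 9.04, 8.52 and 8.42 in chromium restriction replicates 1, 2 and 3, against 8.24, 8.70 and 8.65 in controls, and 10 of 13 were highest in replicate 1. Control 1, lowest in both cell cycle classes, was also lowest in these markers, in those of the intestinal crypt and in those of mesothelium. Mesothelial markers averaged 6.61 there, against 7.55 to 8.16 on the other arrays. Adipose progenitor markers were at 9.87, 9.78 and 9.39, against 9.61, 9.83 and 10.00. Endothelial markers were at 8.78, 9.05 and 8.90, against 9.21, 8.75 and 8.83, and 5 of 6 were highest in control 1. Erythroid markers stayed within 5.73 to 6.01 and germinal centre markers within 6.18 to 6.43. The parts of lymphocytes, macrophages, mesothelium, intestine and liver in the cell cycle values were not tested. Of 21 mitotic genes, 19, 19 and 3 lay above the control mean in chromium restriction replicates 1, 2 and 3. In controls 1, 2 and 3 these counts were 5, 14 and 17. The receptor genes that mark the low end of the arrays had a median difference from the control mean between -0.03 and 0.01 on all 6 arrays.

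**Figure D4:**
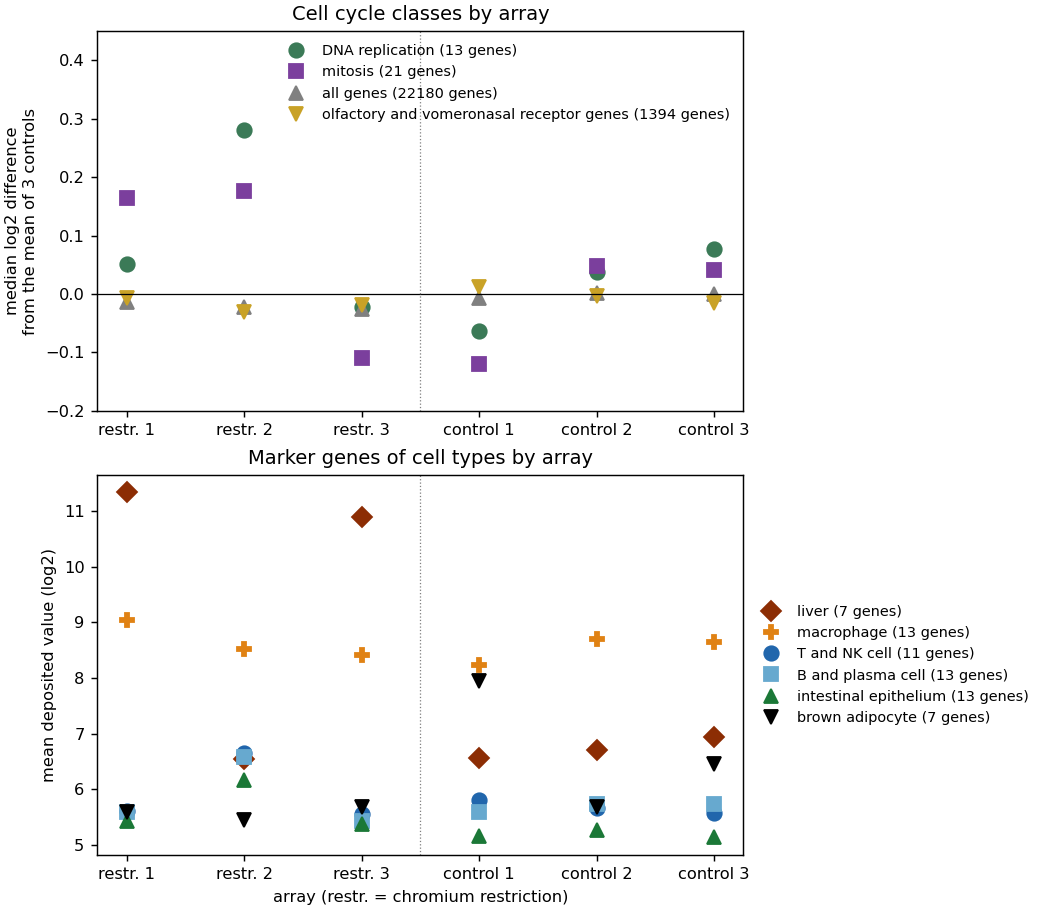
Top, the median log2 difference from the mean of 3 controls (y axis) of replication genes, mitotic genes, all genes and receptor genes on each array; bottom, the mean log2 value (y axis) of marker genes of 6 cell types on the same arrays (x axis, chromium restriction at left). Replication genes peak in chromium restriction replicate 2, as do lymphocyte and intestinal epithelium markers. Mitotic genes are high in replicates 1 and 2, and liver markers are high in replicates 1 and 3.

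The 4 genes of the G1 group went apart. Ccnd1 encodes cyclin D1, which couples growth signals to the G1 kinases. It was at 7.51, 7.73 and 7.88 in the chromium restriction group, against 6.90, 7.32 and 7.35 in controls. The groups did not overlap, and the difference was 0.52 ± 0.16 (SE, n = 3 per group, adjusted p = 0.751 in limma). It was 0.54 with liver markers as a covariate and 0.54 in replicate 2 alone, values that rest mainly on the same array. Without replicate 3 it was 0.43. With the covariate, and without replicate 3, it missed an unadjusted p of 0.05. Ccnd2, cyclin D2, was at 10.42, 11.13 and 10.69, against 10.62, 11.15 and 11.16, and overlapped with a difference of -0.23 ± 0.23 (SE).

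Cdkn1a encodes p21, an inhibitor of cyclin-dependent kinases that p53 and stress signals induce, and it had the largest difference of the 38 genes. It was at 8.98, 8.36 and 8.75 in the chromium restriction group, against 8.05, 7.83 and 7.93 in controls. All 3 chromium restriction arrays lay above all controls, with means of 8.69 ± 0.31 in the chromium restriction group and 7.94 ± 0.11 in controls (SD, n = 3 each). The difference of 0.76 ± 0.16 (SE) is 1.69-fold, with an adjusted p of 0.547 in limma. Both arrays rich in liver transcripts, replicates 1 and 3, had the higher values. In replicate 2, with liver markers at control level, Cdkn1a exceeded the control mean by 0.42. The difference with liver markers as a covariate was 0.44, which again rests mainly on replicate 2. Without replicate 2 the adjusted p was 0.0183 for a difference of 0.93, in a comparison that then called 439 genes. Over all 16 alternative settings its adjusted p ran from 0.0183 to 0.99996 and the difference from 0.42 to 0.93. Cdkn1b, which encodes the related inhibitor p27, was at 7.12, 7.79 and 7.69, against 7.85, 7.39 and 7.70, and overlapped (-0.12 ± 0.21, SE).

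Other genes of the same processes gave a less even picture. Of 47 further replication genes 22 were higher and 25 were lower, with a median difference of -0.007, and 0 passed the adjusted test in limma. At an unadjusted p of 0.05, 1 was higher (2.13%, against 2.42% of all genes) and 1 lower (against 3.53% of all genes). Tk1, the S-phase thymidine kinase gene, was at 6.43, 6.34 and 6.07, against 5.76, 5.998 and 5.91 in controls (0.39 ± 0.12, SE, adjusted p = 0.759). Orc3, a subunit of the origin recognition complex, was at 7.38, 7.99 and 7.65, against 8.16, 8.15 and 8.15 (-0.47 ± 0.15, SE, adjusted p = 0.770). The smallest p-values after these belonged to the E2F family gene E2f8 (0.27) and the clamp loader gene Rfc1 (-0.18). Replicate 2 again held the highest value of the most genes, 17 of 47.

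Of 58 further mitotic genes 37 were higher and 21 lower, with a median difference of 0.036, and 0 passed the adjusted test in limma. That direction did not hold in every setting: the median was -0.039 with genes below the median level left out (8 higher), -0.0094 with array weights (25 higher) and -0.021 without chromium restriction replicate 1 (23 higher). At an unadjusted p of 0.05, 3 were higher (5.17%, against 2.42% of all genes) and 1 lower (against 3.53% of all genes). Spc25, of the Ndc80 complex that binds spindle microtubules, was at 6.01, 5.82 and 5.91, against 5.38, 5.72 and 5.55 in controls. Racgap1, which acts with Kif23 at the central spindle, was at 6.08, 5.83 and 5.72, against 5.60, 5.63 and 5.62, and Cep55, needed for the final cut between daughter cells, differed by 0.16 ± 0.06 (SE). Ncapg2, a condensin II subunit, was the lower one, at 5.65, 5.88 and 5.85, against 6.30, 6.23 and 6.08. In replicate 1 27 of these 58 genes had their highest value, and 17 of the 58 lay below the receptor percentile on every array.

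Of 32 further G1 and checkpoint genes 14 were higher and 18 lower, with a median difference of -0.084, and 0 passed the adjusted test in limma. At an unadjusted p of 0.05, 1 was higher (3.12%, against 2.42% of all genes) and 3 lower (against 3.53% of all genes). E2f4, an E2F factor of resting cells, was higher, by 0.32 ± 0.09 (SE). Lin9, a subunit of the MuvB complex that acts at CHR elements, was at 6.53, 6.73 and 6.52, against 7.21, 7.06 and 6.84 in controls (-0.45 ± 0.12, SE, adjusted p = 0.679). The inhibitor genes Cdkn2d (p19, -0.29) and Cdkn2c (p18, -0.61) were also lower. Cdkn2c was at 7.80, 8.66 and 8.03, against 8.54, 8.88 and 8.91, and its groups overlapped.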

How the data were processed

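The submitters hybridised biotin-labelled total RNA to 1-colour arrays, per the labels. The authors' deposited log2 values (33793 probe sets, 6 arrays, 3.49 to 14.86, array medians 5.44 to 5.57) were used as given; that they are log2 was read from their range, and no label or header used here states their summarisation or normalization. With 3 arrays a group, their number limits the precision.

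By the platform annotation 23521 probe sets carry 1 gene symbol, 1814 carry several and 8458 carry none. The brightest probe set stood for each of 22180 genes, with no filter. Differences were fitted with limma 3.58.1 in R 4.3.3 (lmFit and eBayes, two-sided, Benjamini-Hochberg over all genes), and the script was tested on simulated data. Members, lists, tests and alternatives were chosen with earlier results of these data known. All members are accounted for. Full values are given at p under 0.05, without overlap, for the 3 brightest per class and for a fixed set; further lists give up to 4 genes of smallest p and marker lists up to 3 of the brightest, with others named for contrast after their values were seen. The labels do not say whether replicate numbers pair samples between the groups, and the main fit treated them as unpaired.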

Additional observations from a re-analysis of the deposited data

How the results depend on the processing

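Under 16 alternative settings (quantile normalization, median centring, a filter on dim genes, probe sets averaged per gene, weighted arrays, a robust eBayes with trend, the replicate block, rows with extra digits left out, a liver covariate, the liver-rich arrays left out, and each array left out) 19 of 38 members kept the sign of their difference wherever they were fitted. Of these, 9 were fitted in all 16, among them Cdk1, Ccnd1, Cdkn1a, Mcm3 and Mki67, and 10 in 15, since the filter on dim genes removed them. The other 19 had the opposite sign under at least 1. With genes below the median level left out, 14 members were higher, 5 of them mitotic, since 19 members were then tested. With the liver covariate 5 members were higher at p 0.05 (Mcm3, Mcm4, Mcm6, Ccna2 and Cdkn1a), the median replication gene was at 0.26 and 4 of 4 G1 genes were higher. With replicates 1 and 3 of the chromium restriction group left out, 1 array against 3, these values were 6 members (Mki67 added), 0.28 and 4; the lone array is assumed to vary like the controls. Under none of the 16 settings was the share of all genes at p 0.05 counted. The numbers of members at that p, here and below, therefore cannot be read as an excess over all genes. With array weights the median mitotic gene was at 0.021. With each array left out in turn, 25 to 32 members were higher, 3 to 8 were higher at p 0.05, and 0 to 1 passed the adjusted test (Cdkn1a, without chromium restriction replicate 2). The medians ran from 0.024 to 0.12 for replication, 0.067 to 0.18 for mitosis and 0.12 to 0.35 for the G1 group. Same-numbered samples did not deviate together (correlations of -0.12, -0.095 and 0.078 across genes), and the fit with the replicate block gave 3 members higher at p 0.05 and 0 past the adjusted test, and called 0 of all genes where the fit without it called 43. Signal limits what can be seen for the 10 members that did not exceed the receptor percentile on every array; no detection call was used.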

Other observations

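Probe sets shared between a member and another gene were left out of the comparison, and their values are given here. The probe set of Ccne2, which encodes the S-phase cyclin E2, is shared with Ints8, a subunit of the Integrator complex. It was at 5.59, 5.52 and 5.57 in the chromium restriction group, against 5.93, 5.70 and 5.92 in controls, so all 3 chromium restriction arrays lay below the controls (difference -0.29). Which of the 2 genes it reads was not determined. A pair of probe sets shared by Top2a and Taf1d, at 8.65 to 9.26 over the arrays, differed by -0.15 and -0.16. The probe set of Top2a alone was much dimmer, at 4.79 to 5.80, and differed by 0.37. Which gene the shared pair reads was not determined. One shared by Nusap1 and Oip5, a centromere gene, differed by 0.13. The others were of Tyms with Tyms-ps (-0.01) and of Mcm7 with Mir25 (0.04) and with Mir93 (-0.05). All of these shared probe sets except that of Ccne2 overlapped between groups.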
